A study of Mus musculus with 9 samples.

Results

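Activity-dependent immediate early genes are the genes that neurons switch on within minutes of synaptic input, without needing new protein synthesis. Calcium entry and kinase cascades act on transcription factors already in the nucleus, chiefly CREB and the serum response factor, and the induced products are further transcription factors, feedback inhibitors of the same cascades, and effectors at synapses. In the hippocampus their transcripts mark recently active neurons, decay quickly, and are tied to memory formation. The 31 genes described here were taken by name from a list of early transcription factors and activity-induced effectors. They comprise 5 AP-1 factors, 4 Egr factors, 3 Nr4a receptors and the 4 nuclear factors Npas4, Klf10, Ier2 and Ier5. The rest are 8 feedback regulators, 3 synaptic or cytoskeletal effectors and 4 secreted effectors. All are called immediate early genes below, but whether each effector meets the definition above was not tested. All 31 of 31 were found among the 24394 named genes of the deposited table, and 31 passed the filter on low counts that left 15296 genes for testing.

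The libraries are polyadenylated RNA from whole postmortem hippocampus of young mice of the inbred strain C57BL6/J, in 3 groups of 3 libraries. The sham group was a saline control. The doxorubicin (Doxo) group received an injection of that anthracycline, a chemotherapy drug that poisons topoisomerase II, and the MitoQ group the same injection with supplementation of MitoQ, a mitochondria-targeted ubiquinone. No allele or transgene is named for any group, and no source used here gives sex, dose, the interval from injection to collection, the hour of death or the handling before it. Nothing states that each library came from its own mouse. The p-values therefore set group differences only against the spread between these libraries, and that spread may be technical.

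The libraries held between 24.7 M and 41.2 M counts each. Levels are in CPM, counts per M (mega) counts, scaled to TMM-adjusted library sizes, where 3 counts correspond to 0.072 to 0.12 CPM. Markers of dentate granule cells (5 of 5 tested, summed 366 to 507 CPM over the 9 libraries), CA1 neurons (735 to 818 CPM) and CA3 and CA2 neurons (315 to 470 CPM) were present in every library, as the labelled tissue requires. Neocortical markers summed to 217 to 237 CPM in sham, 133 to 159 CPM with doxorubicin and 142 to 188 CPM with MitoQ. Choroid plexus markers varied most, from 72.2 to 5210 CPM. In bulk tissue, fewer cells of a type and less RNA per cell cannot be told apart, and neither can fewer active neurons and less transcript in each.

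Many activity-dependent genes are known to carry a short CREB element near their start. CREB binds the element TGACGTCA (CRE) and its core TGACG, and both were searched on both strands in the 250 bases before the annotated start, from RefSeq on GRCm38.p6, for the 22 members with an entry. A gene with several windows counts once, if any window holds the motif. The core was present upstream of 16 of the 22 (72.7%), against 19.8% of all 27025 genes with an entry, and the complete element, which contains the core, upstream of 4 (Arl4d, Btg2, Dusp1 and Scg2; 18.2% against 1.77%). Members without an entry are Vgf, Trib1, Nptx2, Arc, Klf10, Ier2, Egr1, Egr3 and Sik1. These shares are descriptions, and the comparison genes were not matched to the members in expression, base content or number of windows.

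The following 4 windows are shown because Fos, Nr4a1 and Npas4 are early transcription factors that were lowest in the same library, while Ier5 is the member with the smallest p between groups. Capitals mark the CRE core on either strand (TGACG or CGTCA) and the TATA motif TATAAA; the last base printed lies directly before the annotated start, which for Nr4a1 and Npas4 lies inside the GENCODE span of the gene.
Fos, chr12:85473640-85473889, plus strand: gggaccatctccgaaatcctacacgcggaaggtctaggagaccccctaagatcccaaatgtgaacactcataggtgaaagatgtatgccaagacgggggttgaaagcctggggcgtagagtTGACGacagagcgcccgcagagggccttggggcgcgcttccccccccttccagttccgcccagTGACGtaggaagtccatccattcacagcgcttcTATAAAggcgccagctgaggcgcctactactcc
Nr4a1, chr15:101266596-101266845, plus strand: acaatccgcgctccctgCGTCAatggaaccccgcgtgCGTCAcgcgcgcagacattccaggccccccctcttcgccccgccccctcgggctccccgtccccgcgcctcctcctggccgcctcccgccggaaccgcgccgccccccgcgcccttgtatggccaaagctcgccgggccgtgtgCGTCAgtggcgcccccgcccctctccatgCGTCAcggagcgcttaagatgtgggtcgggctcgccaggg
Npas4, chr19:4989972-4990221, minus strand: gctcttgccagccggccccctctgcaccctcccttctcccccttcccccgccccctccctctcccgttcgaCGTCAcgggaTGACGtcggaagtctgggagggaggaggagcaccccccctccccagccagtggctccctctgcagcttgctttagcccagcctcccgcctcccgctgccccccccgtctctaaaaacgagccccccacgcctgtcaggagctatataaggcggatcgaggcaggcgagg
Ier5, chr1:155099637-155099886, minus strand: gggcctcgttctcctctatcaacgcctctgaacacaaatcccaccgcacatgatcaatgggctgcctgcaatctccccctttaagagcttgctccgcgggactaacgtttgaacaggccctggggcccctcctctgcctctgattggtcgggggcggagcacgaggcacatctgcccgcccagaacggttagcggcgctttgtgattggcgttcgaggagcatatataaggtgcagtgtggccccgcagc

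Fos carries the core at 2 positions, Nr4a1 at 4 and Npas4 at 2, and these letters do not occur in the Ier5 window. The CArG box, bound by the serum response factor, was found for Egr2 and Dusp5 (9.09% of the 22 against 1.62% of all genes). The Egr motif GCGNGGGCG was found for 7 members (31.8% against 5.33%), the TATA motif for 4 (18.2% against 14.3%) and the AP-1 motif TGANTCA for 0 (0% against 7.82%). A match is a run of letters, not a binding site, and a missing match says only that the letters are absent from this window.

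None of the 31 genes passed the test between groups by edgeR, DESeq2 or limma-voom, while libraries of the same group differed widely. MitoQ replicate 1 lay below both other MitoQ libraries for 28 of 31 genes, against 33.3% of all tested genes, with Fos at 7.16 CPM against 38.7 and 34.9 CPM. Doxorubicin replicate 3 lay below both other doxorubicin libraries for 24 (39.5% of all genes). Sham replicate 2 lay above both other sham libraries for 28 (34.5%), and doxorubicin replicate 2 above its group for 24 (31.5%). The mean of the 31 genes, as log2 CPM relative to the sham mean, was -0.18, 0.27 and -0.09 in sham, 0.08, 0.30 and -0.24 with doxorubicin, and -0.58, 0.18 and 0.16 with MitoQ. The group means were 0 ± 0.23, 0.04 ± 0.27 and -0.08 ± 0.44 (SD, n = 3), so each group's range overlapped the others.

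**Figure D1:**
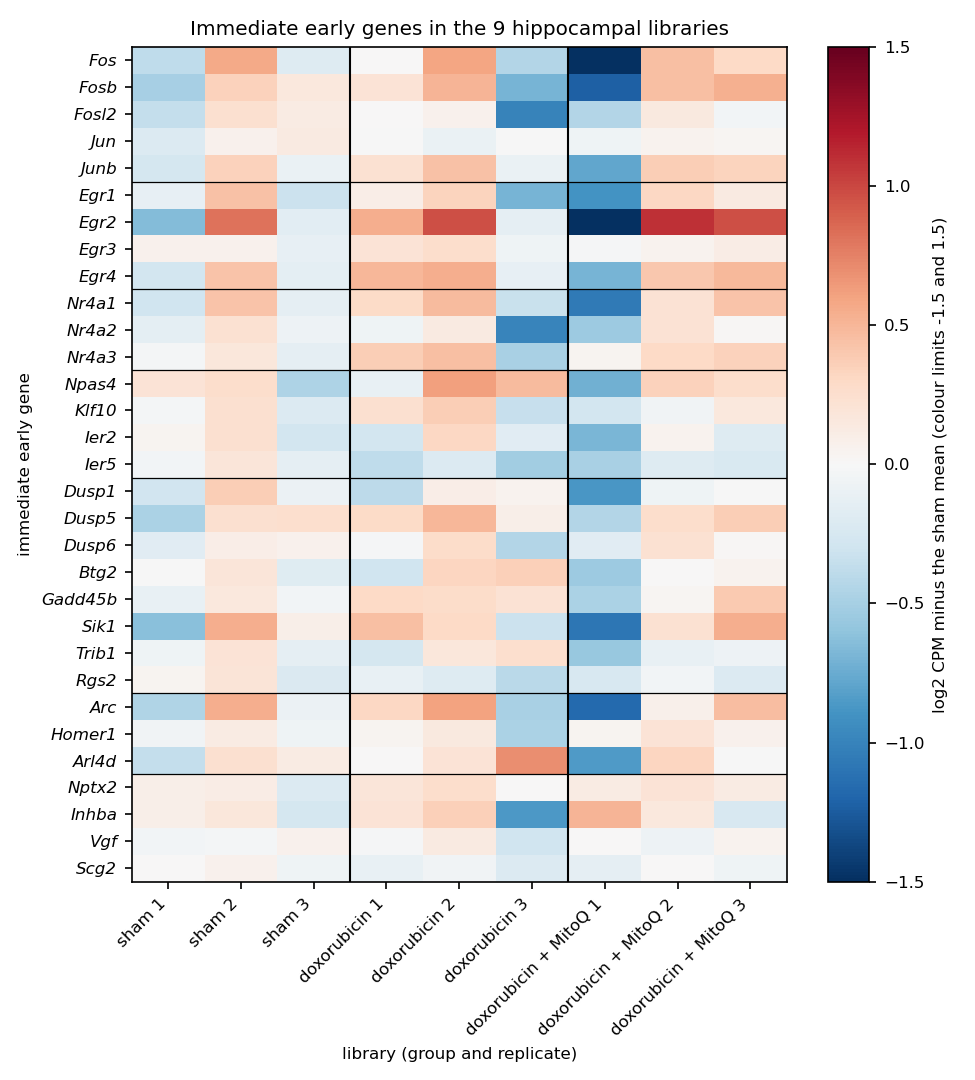
Each row is an immediate early gene and each column a library; colour gives log2 CPM minus the mean of the 3 sham libraries, with limits at -1.5 and 1.5 (Fos at -1.98 and Egr2 at -2.41 in MitoQ replicate 1 lie beyond them), and lines separate groups and role classes. MitoQ replicate 1 is blue in most rows, while sham replicate 2 and doxorubicin replicate 2 are mostly red.

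The AP-1 factors dimerise to drive secondary response genes. Fos (chromosome 12, 85473890 to 85477273, plus strand), the prototype, was at 21.8, 42.2 and 24.8 CPM in sham, 28.4, 42.7 and 20.9 CPM with doxorubicin, and 7.16, 38.7 and 34.9 CPM with MitoQ. The groups overlapped, MitoQ replicate 1 was lowest and doxorubicin replicate 2 highest, and within the MitoQ group the highest library was 5.4-fold above the lowest. Fosb, whose long and truncated products were counted together, was likewise at 8.95 CPM in MitoQ replicate 1 and 12.9 to 30.3 CPM elsewhere. Junb ranged from 60.5 to 141 CPM with the lowest value in the same library, and its exons overlap those of Prdx2 on the other strand. Fosl2 was lowest in doxorubicin replicate 3, at 38.4 CPM against 56.6 to 90.6 CPM in the other 8 libraries. Jun, a constitutively abundant partner, was nearly flat at 159 to 203 CPM; its exons overlap the antisense gene Junos.

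Egr factors are zinc finger regulators of plasticity genes. Egr1 (chromosome 18, 34859823 to 34864984, plus strand) was at 228, 337 and 198 CPM in sham, 266, 312 and 152 CPM with doxorubicin and 133, 308 and 273 CPM with MitoQ. As for Fos, MitoQ replicate 1 was lowest and doxorubicin replicate 3 next. Egr2 had the widest range of all members, from 1 CPM in MitoQ replicate 1 (32 counts, exact Poisson 95% interval 0.687 to 1.42 CPM, counting error only) to 11.8 CPM in MitoQ replicate 2. Egr4 ranged from 30.3 to 72.4 CPM. Egr3 differed from its relatives in staying between 140 and 182 CPM, with MitoQ replicate 1 at 150 CPM inside that range.

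The Nr4a genes encode orphan nuclear receptors induced by cyclic AMP and calcium. Nr4a1 (chromosome 15, 101254269 to 101274795, plus strand) was at 76.6, 127 and 86.2 CPM in sham, 115, 131 and 74.9 CPM with doxorubicin and 45.4, 110 and 127 CPM with MitoQ. Its lowest value was again in MitoQ replicate 1 and its highest, as for Fos, in doxorubicin replicate 2. Nr4a2 and Nr4a3 were instead lowest in doxorubicin replicate 3, at 42 and 91.5 CPM, against 57.1 to 97.8 and 117 to 175 CPM elsewhere.

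Npas4 (chromosome 19, 4984355 to 4990316, minus strand), a neuron-specific factor that responds to calcium entry rather than to growth factors, was at 20.4, 21.4 and 12.9 CPM in sham. It was at 16.4, 27.4 and 24.7 CPM with doxorubicin and at 10.8, 22.6 and 21.3 CPM with MitoQ. Its lowest and highest libraries, MitoQ replicate 1 and doxorubicin replicate 2, were those of Fos. Doxorubicin replicate 3, low for Fos and Egr1, was here the next to highest library, so Npas4 shared their order only in part. The growth-factor-responsive repressor Klf10 ranged from 24.6 to 40.5 CPM and the nuclear protein gene Ier2 from 5.28 to 10.5 CPM, with their lowest values in doxorubicin replicate 3 and MitoQ replicate 1.

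Ier5 (chromosome 1, 155096361 to 155099636, minus strand), whose product activates the heat shock factor HSF1, was the member whose groups stood furthest apart relative to their spread. It was at 57.5, 66.6 and 53.6 CPM in sham, 45.3, 51.4 and 41.1 CPM with doxorubicin and 42.1, 51.7 and 50.2 CPM with MitoQ. All 6 libraries of doxorubicin-injected mice lay below each of the 3 sham libraries. The log2 fold change of doxorubicin against sham was -0.37 (SE 0.11, 95% interval -0.61 to -0.13) and missed the threshold by edgeR's quasi-likelihood test (unadjusted p = 0.0067, Benjamini-Hochberg adjusted p = 0.48 over all genes; DESeq2 adjusted p = 0.16). The MitoQ group against sham gave -0.30 (SE 0.11), with an adjusted p of 1, and shares those sham libraries. Leaving out each library in turn, the doxorubicin value ran from -0.47 to -0.28 with adjusted p from 0.39 to 0.77.

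**Figure D2:**
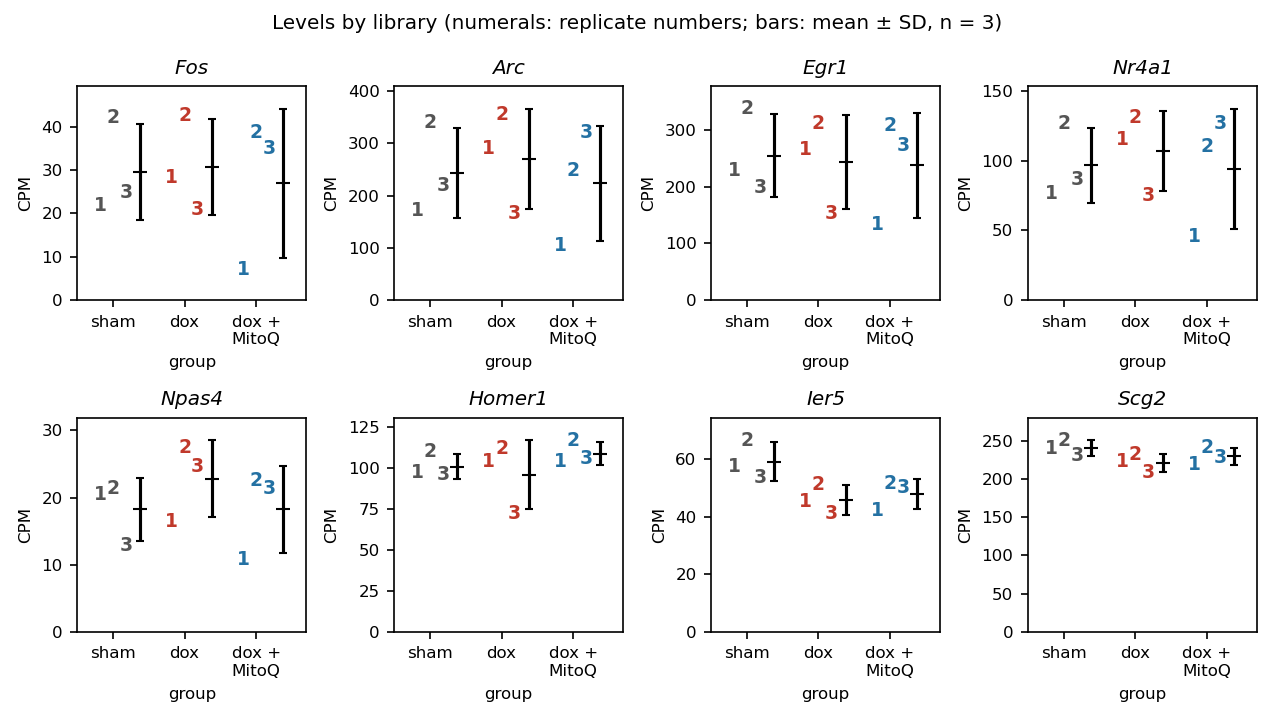
Levels in CPM (vertical axes from 0) of 8 immediate early genes by group; numerals are the replicate numbers and bars the mean ± SD of 3 libraries. For Fos, Arc, Egr1, Nr4a1 and Npas4 replicate 1 of the MitoQ group is the lowest point (7.16 CPM for Fos). Ier5 is higher in each sham library (53.6 to 66.6 CPM) than in the other libraries (41.1 to 51.7 CPM).

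Feedback regulators limit the response. Among the dual-specificity phosphatases that switch off MAP kinases, Dusp1 ranged from 16.1 CPM (MitoQ replicate 1) to 38.3 CPM (sham replicate 2), Dusp5 from 10.9 to 21.5 CPM and Dusp6 from 52.5 to 86.7 CPM. Exons of Dusp1 overlap Ergic1 and those of Dusp5 an antisense gene, and without a stated strand setting such reads cannot be told apart. The kinase gene Sik1, which restrains CREB coactivators, ranged from 10.1 to 31.2 CPM and was lowest in MitoQ replicate 1. The growth arrest gene Gadd45b was at 13.1, 15.8 and 13.8 CPM in sham, 17.4, 17.2 and 16.5 CPM with doxorubicin and 10.2, 14.5 and 18.6 CPM with MitoQ. Its doxorubicin libraries all lay above sham, the nearest at 16.5 against 15.8 CPM. The mean difference was 0.26 on the log2 scale (SE 0.18, adjusted p = 0.68 with edgeR).

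Btg2, an antiproliferative cofactor and p53 target, was at 24.5, 27.9 and 21.8 CPM in sham, 19.9, 30.8 and 31.5 CPM with doxorubicin and 17, 24.6 and 25.4 CPM with MitoQ. Trib1, a pseudokinase gene, was at 13.5, 16.3 and 13 CPM in sham, 11.8, 15.9 and 16.9 CPM with doxorubicin and 9.55, 13.1 and 13.4 CPM with MitoQ. Both were highest in doxorubicin replicate 3 and lowest in MitoQ replicate 1, and their groups overlapped. Trib1 had the smallest p of the members between the MitoQ and doxorubicin groups, at -0.31 on the log2 scale (SE 0.17; adjusted p = 0.97 with edgeR). Rgs2, which shortens G protein signalling, was at 38.9, 43.2 and 32.6 CPM in sham, 35.3, 33.3 and 28.6 CPM with doxorubicin and 32.2, 37 and 33.1 CPM with MitoQ, again overlapping (doxorubicin minus sham -0.24 on the log2 scale, SE 0.11; adjusted p = 0.57 with edgeR).

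Synaptic effectors followed in part. Arc (chromosome 15, 74669083 to 74672570, minus strand), which drives AMPA receptor endocytosis, was at 171, 339 and 219 CPM in sham. It was at 289, 354 and 166 CPM with doxorubicin and at 104, 247 and 320 CPM with MitoQ. The lowest and highest libraries, MitoQ replicate 1 and doxorubicin replicate 2, were those of Fos. Homer1 was at 97.1, 110 and 95.9 CPM in sham, 104, 112 and 72.4 CPM with doxorubicin and 104, 117 and 106 CPM with MitoQ, lowest in doxorubicin replicate 3. The short induced product Homer1a and the long constitutive scaffolds are a single entry here, so this value is not that of Homer1a. The GTPase gene Arl4d was at 11.5, 17.5 and 16.2 CPM in sham, 14.8, 17.2 and 24.2 CPM with doxorubicin and 8.23, 18.6 and 14.7 CPM with MitoQ. It was lowest in MitoQ replicate 1 and, unlike Arc, highest in doxorubicin replicate 3.

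Among the secreted effectors, MitoQ replicate 1 stood at 0.51 for Inhba, 0.12 for Nptx2, 0 for Vgf and -0.13 for Scg2 on the log2 scale relative to sham. Their mean of 0.12 thus rests largely on Inhba, the scarcest member, and the difference between classes was not tested. Homer1 and Nr4a3, of other classes, were both at 0.04 there. The AP-1 group stood at -0.90, the Egr group at -1.01 and the synaptic group at -0.66. The feedback group was at -0.55, the group of Npas4, Klf10, Ier2 and Ier5 at -0.54 and the Nr4a group at -0.52. Single genes weighed on these means too, with Egr2 at -2.41 beside Egr3 at -0.02, and Fos at -1.98 beside Jun at -0.07. Scg2, the precursor of secretoneurin, was at 241, 251 and 231 CPM in sham, 224, 232 and 209 CPM with doxorubicin and 220, 242 and 229 CPM with MitoQ (doxorubicin minus sham -0.12 on the log2 scale, SE 0.06; adjusted p = 0.57 with edgeR). Nptx2, a pentraxin that clusters AMPA receptors, was at 33.1, 33.5 and 27 CPM in sham, 35.1, 37.1 and 31 CPM with doxorubicin and 33.7, 35.8 and 33.7 CPM with MitoQ. The MitoQ libraries all lay above sham for Nptx2, the nearest at 33.7 against 33.5 CPM, with a mean difference of 0.14 on the log2 scale (SE 0.09; adjusted p = 1 with edgeR). That difference was 0.04 without sham replicate 3. The neuropeptide precursor Vgf ranged from 220 to 298 CPM. The activin subunit gene Inhba, the scarcest member, was at 1.57 CPM in doxorubicin replicate 3 (43 counts, exact Poisson 95% interval 1.13 to 2.11 CPM) and at 2.4 to 4.11 CPM elsewhere, with its highest value in MitoQ replicate 1.

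**Figure D3:**
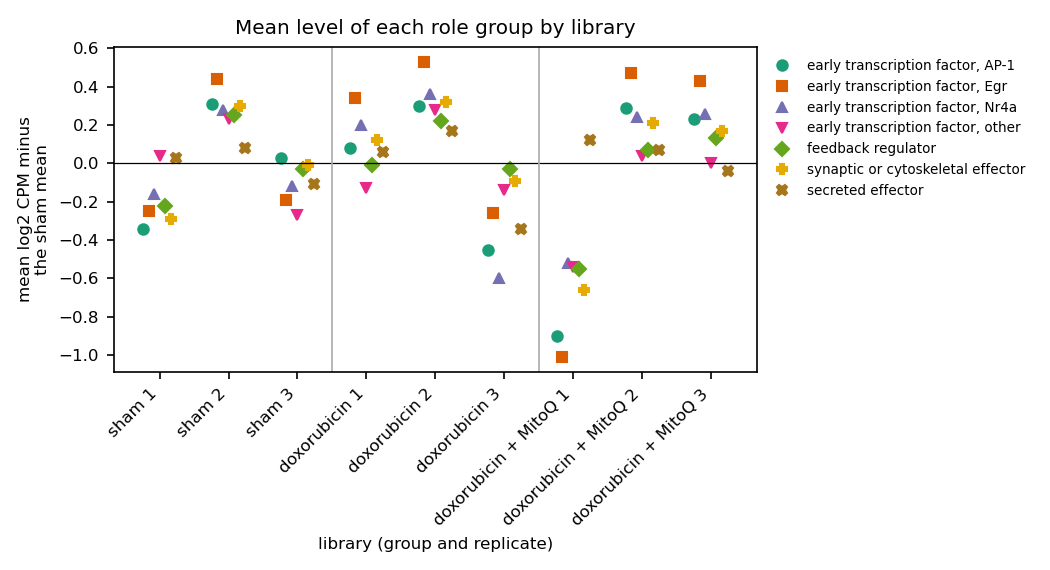
Mean log2 CPM minus the sham mean (vertical axis) of the members of each role class, in each of the 9 libraries (horizontal axis). In MitoQ replicate 1 the secreted effectors stand at 0.12, and the other 6 classes lie between -1.01 and -0.52.

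Per base of annotated exon (union over GENCODE M21 transcripts), the sham levels were highest for Scg2, Vgf and Arc at 95.8, 91.2 and 79.5 CPM per kilobase. Jun (57.7) and Egr1 (56.6) followed, and Fos stood at 12.6, Npas4 at 4.4, Egr2 at 1.77 and Inhba at 0.454 CPM per kilobase. The annotation used by the authors is not given, so these lengths are approximate.

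Variation between libraries of a group, expressed as edgeR's biological coefficient of variation (BCV), had a median of 20.1% over the 31 genes and of 9.73% over all genes tested, of which 13.3% exceeded 20.1%. The members had a median level of 34.9 CPM and all tested genes 21.5 CPM, and at 10 CPM or more the medians were 18.6% for 28 members and 7.71% for 10032 genes. The BCV was highest for Egr2 (55.9%), Fos (42%), Fosb (35.6%), Arc (32.9%), Sik1 (32.6%), Nr4a1 (28.6%) and Egr1 (27.6%). It was lowest for Scg2 (5.93%), Jun (7.65%), Egr3 (8.01%), Vgf (8.51%) and Nptx2 (8.79%). The BCV is an estimate shrunk towards genes of like abundance and carries no test here.

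**Figure D4:**
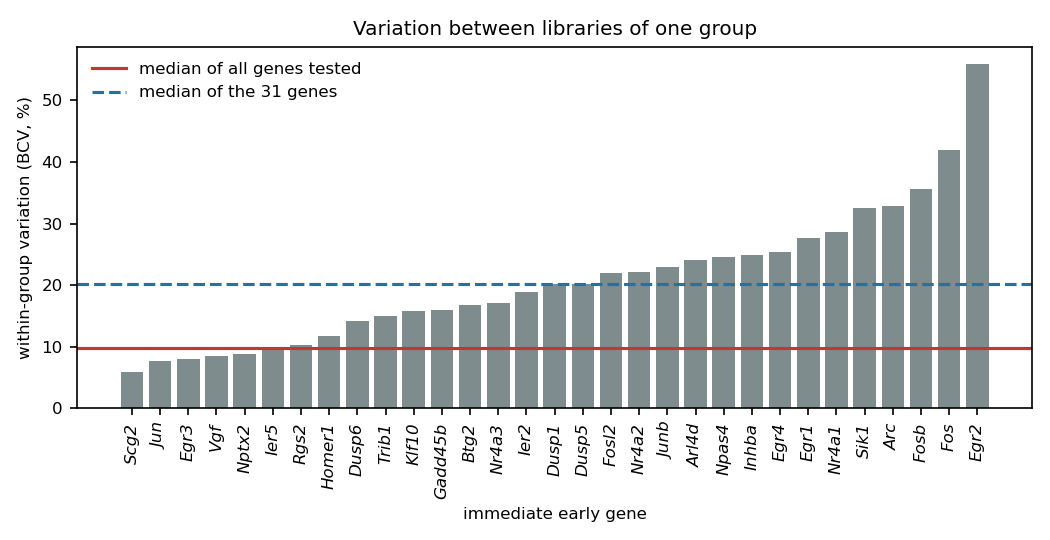
BCV (%, vertical axis from 0) of each of the 31 genes, sorted; the solid line is the median of all tested genes (9.73%) and the dashed line that of the 31 genes (20.1%). The 5 lowest bars, Scg2 to Nptx2, lie below 9%, and Egr2 reaches 55.9%.

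Several members shared their lowest libraries. In Fos the 4 lowest libraries were MitoQ replicate 1, doxorubicin replicate 3 and sham replicates 1 and 3. The same 4 libraries were lowest in 11 of the 31 genes (Arc, Egr1, Egr2, Egr4, Fos, Fosb, Junb, Nr4a1, Nr4a2, Nr4a3 and Sik1; 35.5%) and in 1.69% of all tested genes. This set of libraries was read off Fos after its values were seen, so the count is a description. Of all 31 genes, 16 were lowest of the 9 libraries in MitoQ replicate 1 (7.1% of all tested genes), 11 in doxorubicin replicate 3 (22%), 2 in sham replicate 1 and 2 in sham replicate 3. Highest values fell in doxorubicin replicate 2 for 14 genes (11.2% of all genes) and in sham replicate 2 for 8 (14.5%).

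Other lists were read in the same libraries. In doxorubicin replicate 3 the 9 glucocorticoid-responsive genes had a mean of 1.21 on the log2 scale relative to sham (-0.32 to 0.17 in the other 8 libraries; summed level 556 to 698 CPM in sham, 595 to 989 CPM with doxorubicin and 537 to 653 CPM with MitoQ). That mean rests largely on Plin4, at 54.8 CPM there and 1.6 to 4.87 CPM elsewhere, and Sult1a1, at 23.6 against 4 to 7.12 CPM. Sgk1 in that list was at 185 CPM there and at 50.2 to 128 CPM elsewhere. Tsc22d3, at 65.7 CPM there, lay inside its sham range of 39.9 to 71.9 CPM, while the other listed genes were highest in that library. Dentate granule markers stood at 0.42 in the same library, against -0.13 to 0.32 in the other 8. That mean rests largely on Dsp, at 140 CPM there and 71.2 to 98.3 CPM elsewhere, and Tdo2, at 10.3 against 5.53 to 8.81 CPM. C1ql2 was at 186 against 149 to 185 CPM, and Prox1 and Lct lay inside the range of the other libraries. Meningeal markers were at -1.19 there, close to the -1.12 of doxorubicin replicate 2, and at -0.64 in doxorubicin replicate 1, -0.81 to -0.17 with MitoQ and -0.14 to 0.13 in sham. In MitoQ replicate 1 the nuclear-retained RNAs, listed as a sign of RNA quality, had a mean of 0.40 (-0.30 to 0.35 elsewhere). Neocortical markers were at -0.69 there (-0.65 to 0.05 elsewhere), and both means were close to the nearest other library. Of the 5 RNAs, all tested, Malat1 was at 486 CPM (165 to 349 CPM elsewhere) and Neat1 at 130 CPM (74.9 to 126 CPM elsewhere). Meg3, Miat and Snhg11 lay inside the range of the other libraries. Dentate granule markers there were at 0.17, CA1 markers at -0.11 and interneuron markers at -0.11. Nuclear-retained RNAs summed to 2660 to 4400 CPM in sham, 3950 to 4540 CPM with doxorubicin and 3430 to 4050 CPM with MitoQ. The part of any of these in the immediate early gene levels was not tested.

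Doxorubicin was compared with sham to ask whether the drug shifted these genes. EdgeR called 0 of the 31, and 0 of all 15296 genes (0%; 44 by DESeq2 and 0 by limma-voom). At an unadjusted p under 0.05 there was 1 member, Ier5, lower (3.23% of members against 8.83% of all genes, 4.33% higher and 4.49% lower), and DESeq2 and limma-voom called 0 members. For 2 members the groups did not overlap, Gadd45b higher (6.2% of all genes) and Ier5 lower (6.79%), together 6.45% against 13% of all genes, which is no more than the background. Of the 31, 18 had a log2 fold change above 0 (58.1% against 51.1% of all genes), with a median of 0.06 against 0 for all genes and a range of -0.37 to 0.38. This median depended on single libraries: it was 0.21 without doxorubicin replicate 3 (25 of 31 higher), 0.19 without sham replicate 2, 0.02 without sham replicate 3, -0.03 without sham replicate 1 and -0.05 without doxorubicin replicate 2 (12 higher).

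The precision was lower for the members than for all genes. The median SE of a log2 fold change was 0.23 for the members and 0.1 for all genes. For Fos the 95% interval of doxorubicin against sham ran from -1.06 to 1.14, for Arc from -0.71 to 1.01, for Egr1 from -0.79 to 0.65 and for Egr2 from -1.08 to 1.84, before any adjustment over all genes. For Scg2 the interval was -0.25 to 0.01, for Jun -0.23 to 0.13 and for Egr3 -0.05 to 0.33.

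**Figure D5:**
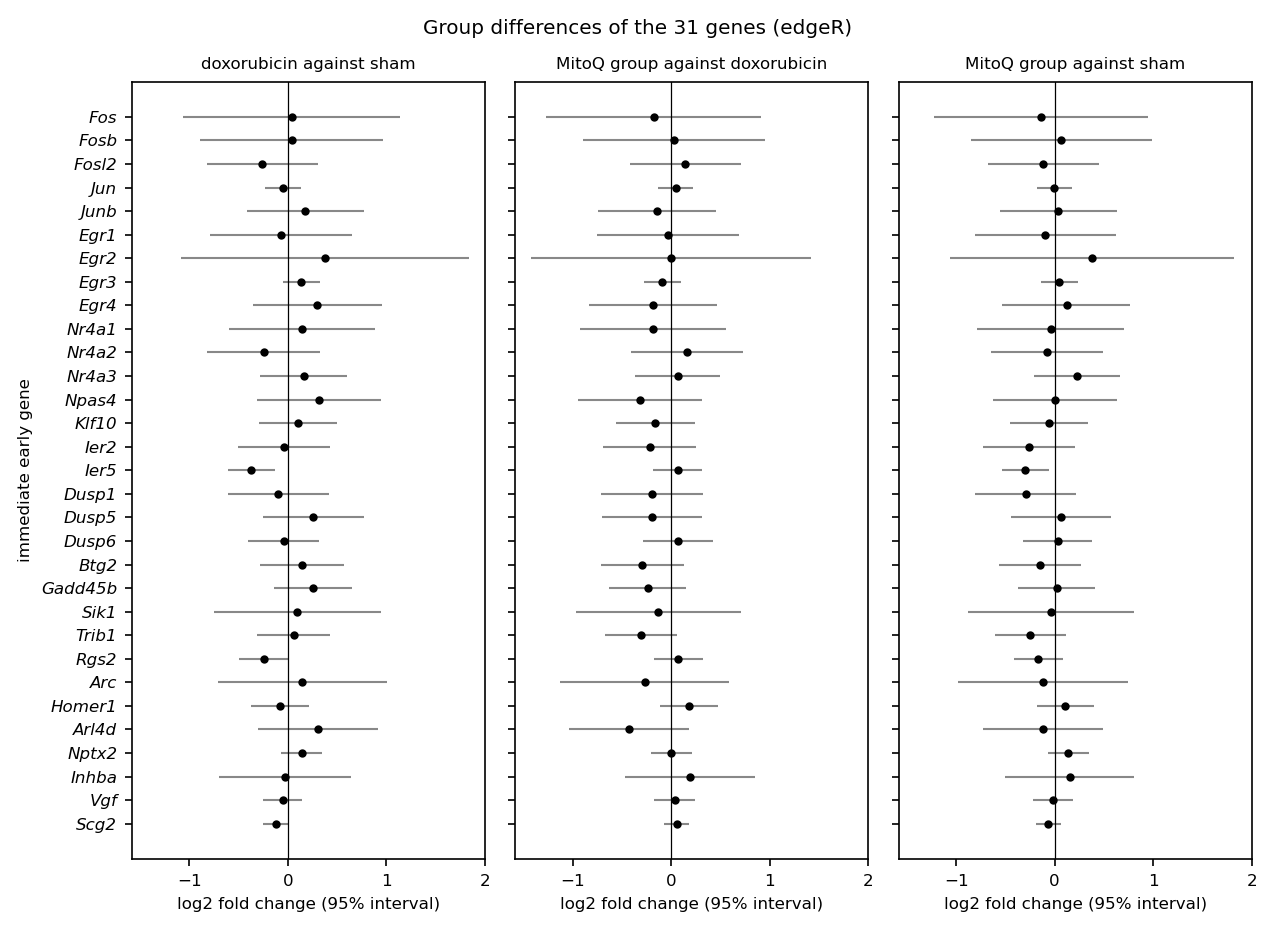
Points are edgeR log2 fold changes of the 31 genes in the 3 comparisons (first named group minus second) and lines their 95% intervals. The interval of Ier5 excludes 0 in both comparisons with sham (-0.61 to -0.13 with doxorubicin), before adjustment over 15296 genes, and the intervals of Egr2 and Fos are the widest.

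The MitoQ group was compared with doxorubicin alone to ask what the supplement changed. EdgeR called 0 members and 0 of all genes (0%; 5 by DESeq2 and 0 by limma-voom). At an unadjusted p under 0.05 there were 0 members against 3.3% of all genes (1.88% higher and 1.43% lower). DESeq2 and limma-voom also called 0 members. Groups without overlap were found for 0 members (9.71% of all genes, 4.73% higher and 4.98% lower). Of the 31, 13 were higher (41.9% against 49.9% of all genes), with a median log2 fold change of -0.09 (all genes 0). Without MitoQ replicate 1 the median was 0.09 (22 higher), without doxorubicin replicate 3 it was -0.20 (3 higher), and without MitoQ replicates 2 and 3 it was -0.23 and -0.24. It was 0.01 without doxorubicin replicate 1 and 0.02 without doxorubicin replicate 2. The difference for Fos, -0.18 (SE 0.49), was 0.26 without MitoQ replicate 1, and that for Arc, -0.27 (SE 0.39), was 0.07. The next smallest p values after Trib1 were those of Arl4d, at -0.43 (SE 0.28), and Btg2, at -0.29 (SE 0.19), each with an edgeR adjusted p of 0.97. Without MitoQ replicate 1 these were -0.17 for Trib1, -0.17 for Arl4d and -0.13 for Btg2, and without doxorubicin replicate 3 they were -0.20, -0.21 and -0.18. Without doxorubicin replicate 1 Btg2 was at -0.48, and without MitoQ replicate 2 Arl4d was at -0.70.

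Against sham, the MitoQ group likewise showed 0 members called by edgeR, DESeq2 or limma-voom, and edgeR called 0% of all genes (2 genes by DESeq2 and 0 by limma-voom). At an unadjusted p under 0.05 there was 1 member, Ier5, lower (3.23% against 2.95% of all genes, 1.18% higher and 1.77% lower). For Nptx2, higher (4.11% of all genes), and Ier5, lower (5%), the groups did not overlap (together 6.45% against 9.11%). The median was -0.03, with 13 members higher (41.9% against 52.2% of all genes), against 0.01 for all genes. Without MitoQ replicate 1 the median was 0.14 (23 higher) and without sham replicate 2 it was 0.10 (23 higher). Without sham replicates 1 and 3 it was -0.14 and -0.07, and without MitoQ replicates 2 and 3 it was -0.15 and -0.14. A test of any difference among the 3 groups called 0 members and 0% of all genes with edgeR (36 genes and 0 members with DESeq2). Ier5 alone was under an unadjusted p of 0.05 (3.23% of members against 5.11% of all genes; edgeR adjusted p = 0.94). These comparisons share libraries and are not independent.

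Other genes of the pathway were looked at in lists. Of 30 upstream components (receptors, kinases, calcineurin subunits and nuclear factors), 23 were higher and 7 lower with doxorubicin than in sham. Of all genes 51.1% were higher. The list had a median log2 fold change of 0.10, with 0 called by edgeR. An unadjusted p under 0.05 was reached by 5 of the 30 (8.83% of all genes). The transcription factor gene Mef2c was lower at 145 ± 7.94 against 186 ± 28.5 CPM (adjusted p = 0.48 with edgeR), while the CREB coactivator gene Crtc1 higher at 411 ± 19.1 against 361 ± 26.1 CPM (adjusted p = 0.49 with edgeR; SD, n = 3). Between MitoQ and doxorubicin 14 of the 30 were higher (49.9% of all genes), with a median of -0.01. An unadjusted p under 0.05 was reached by 0 of them (3.3% of all genes). Crem, a CREB family member (12 ± 1.11 against 10.1 ± 0.941 CPM), had the smallest p. The NMDA receptor subunit Grin1 (710 ± 48.9 against 785 ± 49.8 CPM) came next, both with an edgeR adjusted p of 0.97. Between MitoQ and sham 24 were higher (52.2% of all genes), with a median of 0.05. An unadjusted p under 0.05 was reached by 2 (2.95% of all genes). These were Mef2d, higher (179 ± 4.88 against 161 ± 10 CPM), and Mef2c, lower (152 ± 16.6 CPM), both with an edgeR adjusted p of 1.

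Another list held 30 other activity-induced genes, 29 of them tested, of which edgeR called 0 in each of the 3 comparisons (3, 1 and 2 of the 29 at an unadjusted p under 0.05, in the order above, against 8.83%, 3.3% and 2.95% of all genes). In MitoQ replicate 1 this list was at -0.33 on the log2 scale relative to sham, the lowest of the 9 libraries (-0.13 to 0.19 in the other 8). With doxorubicin 15 of 29 were higher than in sham (51.1% of all genes), with a median of 0.04. The smallest p belonged to the Krüppel-like factor Klf6, at 29.8 ± 2.03 against 36.1 ± 3.27 CPM (adjusted p = 0.48 with edgeR), followed by the polo-like kinase Plk2, at 259 ± 23.3 against 229 ± 2.81 CPM (edgeR adjusted p = 0.49). Between MitoQ and doxorubicin 11 were higher (49.9% of all genes), with a median of -0.04. Zfp36, an RNA-destabilising protein gene, was at 3.96 ± 0.0332 against 5.05 ± 0.756 CPM. Jund was at 181 ± 15.3 against 196 ± 3.92 CPM (both edgeR adjusted p = 0.97). Between MitoQ and sham 9 were higher (52.2% of all genes), with a median of -0.07. Zfp36 was lower than its sham level of 5.36 ± 0.698 CPM and the kinase gene Pim1 was at 1.5 ± 0.284 against 2.4 ± 0.384 CPM (both edgeR adjusted p = 1).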

How the data were processed

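The authors deposited values per gene symbol for 9 libraries, named as counts and taken here as raw read counts. STAR, mm10 and DESeq2 are named in the submitters' processing notes, without roles; counting program, strand setting and annotation: not given in the sources used here. Of 24421 entries, 27 carry a date in place of a symbol (0.309% to 0.322% of counts) and were left out. Genes were filtered by filterByExpr (minimum count 10), scaled by TMM and fitted in a single quasi-likelihood model over all 9 libraries without a replicate block (edgeR 4.0.16, R 4.3.3), with calls at an adjusted p under 0.05 (Benjamini-Hochberg, all tested genes). SE is the absolute log2 fold change over the square root of F; 95% intervals use the model's degrees of freedom. Relative log2 levels use a prior count of 1. An exact test of 3 against 3 cannot give a p under 0.1. Libraries of each group differed beyond counting noise.

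Alternatives were DESeq2 1.42.0, limma-voom (limma 3.58.1), median-of-ratios size factors, no filter, 1 CPM in 3 libraries, a replicate block, an adjusted p under 0.1, each library left out in turn, and models of the compared groups only. The edgeR procedure was run on simulated counts with planted changes larger than any group difference among the members. That run does not show whether differences as small as theirs would be called. Members and lists were chosen with earlier results of these data known. Library values are given for Fos, Arc, Egr1, Npas4, Nr4a1 and Homer1, for the 3 members with the smallest p in each comparison and in the test of any difference, and for Gadd45b because its groups do not overlap; the other values are ranges. Coordinates are GENCODE M21 (GRCm38), where all 31 symbols matched a single gene. Figures used matplotlib 3.10.9 in Python 3.11.15.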

Additional observations from a re-analysis of the deposited data

How the results depend on the processing

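Under each alternative run, 0 of the 31 members were called in the 3 comparisons and in the test of any difference. The count over all genes, 0 in each, became 44, 5, 2 and 36 with DESeq2 (doxorubicin against sham, MitoQ against doxorubicin, MitoQ against sham, any difference), 1, 2, 0 and 3 without a filter, and 1 for doxorubicin against sham at an adjusted p under 0.1. Leaving out each library gave 0 to 1, 0 to 3, 0 to 3 and 0 to 4, each maximum without MitoQ replicate 2. The replicate block gave 2 genes for doxorubicin against sham. Same-numbered libraries of different groups had deviations correlated from -0.50 to 0.36, and differently numbered ones from -0.37 to 0.49. These values show no pairing by number, but with 3 libraries a group they cannot exclude it.

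The median of the members kept its direction in doxorubicin against sham with every setting that used all 9 libraries (0.04 with limma-voom to 0.10 with the replicate block), and likewise in the other comparisons; leaving out each library it ran from -0.05 to 0.21, from -0.24 to 0.09 (MitoQ against doxorubicin) and from -0.15 to 0.14 (MitoQ against sham). Values near 0 changed sign. Nptx2 (MitoQ against doxorubicin) was 0.003 with no filter, 0.006 with limma-voom, 0.004 with the replicate block and 0.002 with only the groups compared; Npas4 (MitoQ against sham) was -0.028 with limma-voom, -0.054 with the replicate block and -0.004 with only the groups compared.

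Leaving out each library, these log2 fold changes crossed 0. Doxorubicin against sham: Arc -0.11 to 0.46, Egr1 -0.29 to 0.18, Fos -0.28 to 0.39, Homer1 -0.21 to 0.094, Nr4a1 -0.039 to 0.39 and Trib1 -0.042 to 0.20. MitoQ against doxorubicin: Arc -0.62 to 0.072, Egr1 -0.28 to 0.26, Fos -0.54 to 0.26, Ier5 -0.01 to 0.15, Nptx2 -0.069 to 0.058, Nr4a1 -0.46 to 0.14 and Rgs2 -0.008 to 0.14. MitoQ against sham: Arc -0.47 to 0.22, Arl4d -0.40 to 0.14, Btg2 -0.25 to 0.014, Egr1 -0.33 to 0.19, Fos -0.50 to 0.31, Npas4 -0.20 to 0.27 and Nr4a1 -0.32 to 0.29. The scarcest member value rests on 32 counts, and depth and spread were not separated as limits on the precision.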
